A study of Homo sapiens with 6 samples.

Results

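Keratins are the intermediate filament proteins of epithelial cells, and 10 of them that mark simple, basal or luminal epithelium were followed in T24 cells with and without overexpression of RNF112. T24 is an established human bladder cancer (BLCA) cell line, and RNF112 is a RING finger protein that acts as an E3 ubiquitin ligase. The 10 keratins were chosen by gene symbol: KRT5, KRT7, KRT8, KRT80 and KRT81 of type II, and KRT13, KRT17, KRT18, KRT19 and KRT20 of type I. Of these, 9 had a row among the 23152 genes of the deposited tables, and KRT5, the type II keratin of basal cells, was not analysed here. The design compared 3 samples of T24 cells carrying the vector with 3 samples overexpressing RNF112 (oeRNF112), by RNA sequencing of a stranded mRNA library of each. All 6 samples were T24 cells grown in medium with serum. The treatment protocol in the labels names a transfection of siRNA, which the group names do not mention, and how the sequenced oeRNF112 cells were made is not given in the sources used here. Nothing in the labels says that the samples came from separate cultures, so the p-values measure only the spread between these samples. Between 40029547 and 41259569 reads were counted on genes in each sample, and RNF112 itself went from 27, 19 and 24 counts in vector to 29753, 36963 and 31712 counts in oeRNF112 (log2 fold change 10.37, standard error 0.177, adjusted p = 7.4e-10 by edgeR's quasi-likelihood test). Reads from the introduced construct may be part of the latter.

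A keratin filament is built from pairs that join 1 type I with 1 type II keratin, and different epithelia use different pairs. KRT8 and KRT18 are the pair of simple epithelia, KRT7 and KRT19 accompany them in ducts and in the urothelium, KRT5 and KRT17 belong to basal cells, KRT13 to the layers above them and KRT20 to the umbrella cells that line the bladder. KRT80 is a type II keratin found in many epithelia, and KRT81 is a type II keratin of the hair shaft. The type II genes lie together on chromosome 12 and the type I genes on chromosome 17, except KRT18, which sits beside KRT8. In GRCh38 with GENCODE v29, KRT8 occupies chr12:52897187-52949954 on the minus strand and KRT18 chr12:52948871-52952901 on the plus strand. KRT7 lies at chr12:52232520-52252186 and KRT80 at chr12:52168996-52192000, while KRT19 lies at chr17:41523617-41528308 and KRT17 at chr17:41619441-41624842.

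How alike these transcripts are bears on how well their reads can be told apart, so a well conserved stretch of the type I genes is shown first. It codes for the end of the central rod domain, where keratins carry the closing motif of the helix. The 48 coding bases, within exon 6 of each gene, were read from the GENCODE v29 transcripts, 5′ to 3′, and capitals mark the bases that differ from KRT18. KRT34, a type I keratin of the hair shaft, is included because it was the other keratin gene that rose (below).
KRT18: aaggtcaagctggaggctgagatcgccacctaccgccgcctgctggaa
KRT19: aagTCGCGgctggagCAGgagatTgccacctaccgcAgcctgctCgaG
KRT17: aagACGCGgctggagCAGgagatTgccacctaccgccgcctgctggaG
KRT34: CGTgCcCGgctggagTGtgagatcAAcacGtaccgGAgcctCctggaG

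They lie at chr12:52952278-52952325 for KRT18, chr17:41523791-41523838 for KRT19, chr17:41620673-41620720 for KRT17 and chr17:41378970-41379017 for KRT34. Of the 48 bases, 12 differed from KRT18 in KRT19, 10 in KRT17 and 15 in KRT34. Over the whole coding sequence, KRT7 and KRT8 were identical at 75.3% of 1392 aligned bases and KRT17 and KRT19 at 74.7% of 1191. A read needs a longer identical stretch than this to be ambiguous. Of all windows of 100 bases in the transcripts of KRT81, 28.8% occurred unchanged in KRT86, its hair keratin neighbour, so the values of KRT81 are uncertain. In KRT18, 12.2% of windows occurred in KRT8 transcripts, which overlap it on the opposite strand over 525 exon bases. In KRT7, 7.63% occurred in the antisense gene KRT7-AS. The libraries kept strand, but whether counting used it is not given in the sources used here. KRT19 and KRT80 shared no window with another gene, and KRT17 0.227%.

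At baseline T24 cells expressed the simple keratins strongly and KRT17, KRT13 and KRT20 hardly at all. Levels are given as RPKM, which divides a gene's reads by its length and by the sample's total count and so allows genes to be compared. KRT18 had 718.6, 679.7 and 832.5 RPKM in the vector samples (743.6 ± 79.4, SD, n = 3) and was the 85th most abundant gene of the table. KRT8, its partner, had 594.7, 548.4 and 670.1 RPKM (604.4 ± 61.4, rank 98). KRT7 had 503.7, 462.6 and 596.6 RPKM (521.0 ± 68.7, rank 111). These 3 genes made up between 92.2% and 92.7% of the RPKM of the listed keratins in vector.

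KRT19 stood well below them, at 121.5, 103.3 and 129.8 RPKM (118.2 ± 13.5, rank 463). KRT80 had 28.9, 32.6 and 31.0 RPKM (30.8 ± 1.88, rank 1984). KRT81 had 2.26, 1.87 and 3.19 RPKM (2.44 ± 0.677), and KRT17 had 0.463, 0.456 and 0.311 RPKM (0.41 ± 0.0861), from 29, 28 and 19 counts. The order was KRT18, KRT8, KRT7, KRT19, KRT80, KRT81, KRT17, KRT13 and KRT20. The vector ranges of KRT8 and KRT7 overlapped, those of KRT18 and KRT8 were close (lowest 679.7 against highest 670.1 RPKM), those of KRT13 and KRT20, both near 0, overlapped, and those of the neighbours between KRT7 and KRT13 were apart, with a 4.41-fold step from KRT7 to KRT19, 3.83-fold to KRT80 and 12.6-fold to KRT81.

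KRT13 and KRT20 were at the limit of detection in both groups. KRT13 had 1, 0 and 0 counts in vector and 0, 1 and 0 in oeRNF112. KRT20 had 0, 0 and 1 counts in vector and 0, 2 and 0 in oeRNF112. A count of 0 allows up to 3 counts, which is 0.0437 RPKM of KRT13 and 0.0415 RPKM of KRT20 and covers counting error only, so no difference between the groups was detectable at this depth. Neither gene entered the test.

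**Figure D1:**
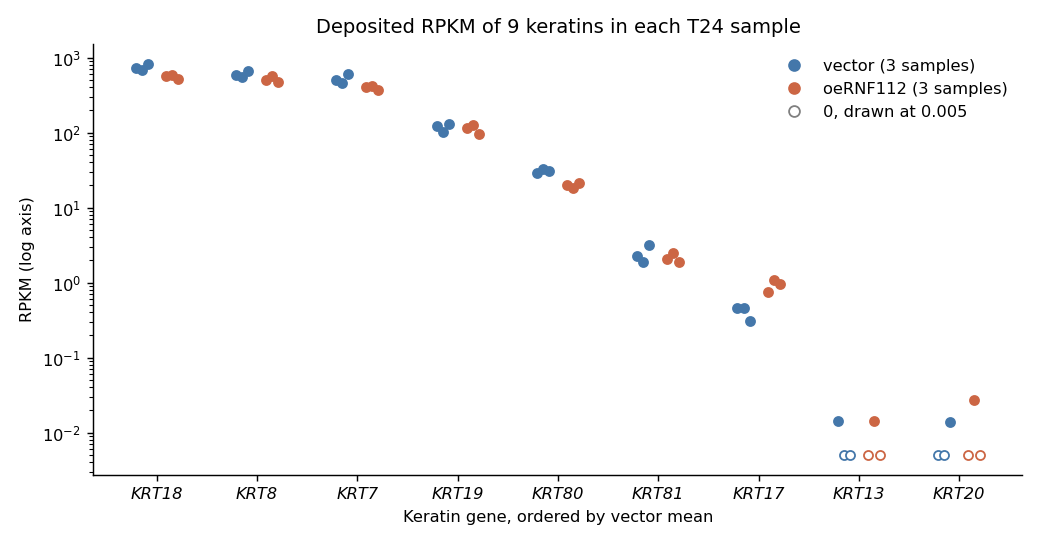
RPKM (log axis) of the 9 keratins with a row, in order of their vector mean, with 1 point per sample (3 vector, 3 oeRNF112) and samples at 0 drawn as open points at the bottom. KRT18, KRT8 and KRT7 lie above 370 RPKM in all 6 samples, while KRT13 and KRT20 hold at most 2 counts in any sample.

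The other genes that mark the cell's identity were measured beside them. Vimentin (VIM), the intermediate filament of mesenchymal cells, was the 29th most abundant gene, at 1961 ± 113 RPKM in vector and 1814 ± 196 RPKM in oeRNF112 (SD, n = 3). So the T24 samples held transcripts of both VIM and the simple keratins, with 0.265 RPKM of KRT7 for each RPKM of VIM in vector. Whether the same cells carried both was not measured. E-cadherin (CDH1) had no count in any vector sample and 1, 1 and 0 counts in oeRNF112. The uroplakins, which coat umbrella cells, summed to between 0.293 and 0.492 RPKM over 4 of 5 genes in all 6 samples, UPK1A being the most abundant. The urothelial factors GATA3 and PPARG had 1.02 and 7.51 RPKM in vector, and TP63, the factor of basal cells, at most 2 counts in any sample. Thus the uroplakins, KRT20, KRT13 and TP63 were near 0 in these bladder cancer cells, and the simple keratins were not. Beside the 10 listed keratins, 24 others had a row, and the listed ones held between 99.0% and 99.3% of the RPKM summed over all 33 keratins in each sample.

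The libraries differed within each group by a trend with gene length, and 5 of the 7 keratins tested moved with it. For each sample, the shortest 25% of genes were compared with the longest 25% by the median deviation of log2 CPM (counts scaled to the sample's total) from each gene's mean over the 6 samples. Short genes exceeded long genes by 0.369 in vector 3 and 0.129 in vector 1, and fell short of them by 0.202 in vector 2. In oeRNF112 the difference was 0.136 in replicate 2, -0.0916 in replicate 1 and -0.338 in replicate 3. The trend thus also differed between the groups, with the highest value in vector 3 and the lowest in oeRNF112 3, though their ranges overlapped. KRT7, KRT8, KRT18, KRT19 and KRT81 followed the order of these values exactly within each group, highest in vector 3 and lowest in vector 2, highest in oeRNF112 2 and lowest in oeRNF112 3. All 5 are shorter than most genes, with KRT7, the longest at 2664 bases, at the 30.7th percentile of the genes tested. KRT17, with 1517 bases, is short too but did not follow the order, being lowest in vector 3 and oeRNF112 1, nor did KRT80. How many of all genes share that order was not counted. The differences of the listed keratins are therefore given also with each sample's smooth trend with gene length and GC content removed, an alternative added after the values had been seen. In that fit the trend was treated as known, so its p-values do not include the error of the trend.

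Overexpression of RNF112 went with lower levels of 3 of the 7 keratins tested and a higher level of 1. KRT80 fell to 60.2% of its vector level, KRT18 to 70.3% and KRT7 to 71.8%, whereas KRT17, a minor keratin here, rose 2.13-fold. KRT8, KRT19 and KRT81 did not pass the test. Over all 14467 genes tested, 18.1% had an adjusted p under 0.05 (edgeR, Benjamini-Hochberg adjustment over all genes), 9.97% as higher and 8.14% as lower in oeRNF112. The median log2 fold change of the 7 keratins was -0.326, against 0.00267 for all genes tested. In bulk samples, fewer cells that express a gene and less RNA per cell cannot be told apart.

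KRT80 changed most clearly. It had 132.5, 145.3 and 142.6 CPM, scaled with edgeR's TMM factors, in vector, and 84.6, 79.9 and 88.5 CPM in oeRNF112. All 3 oeRNF112 samples lay far below the lowest vector sample. On the log2 scale the difference was -0.73 (standard error 0.0848, 95% interval -0.921 to -0.543, adjusted p = 0.000648, edgeR). KRT80 was called under all 16 alternatives, with log2 fold changes from -0.79, with the length and GC trend removed, to -0.61. It did not share the order of the other listed type II genes tested, KRT7, KRT8 and KRT81, within groups. In vector KRT80 was highest in replicate 2, and in oeRNF112 in replicate 3, where the others were lowest.

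KRT18, the most abundant, had 1122, 1030 and 1302 CPM in vector and 816.5, 872.9 and 738.4 CPM in oeRNF112. The groups did not overlap, and the log2 fold change was -0.51 (standard error 0.111, 95% interval -0.757 to -0.261, adjusted p = 0.013, edgeR). Without vector replicate 1 or oeRNF112 replicate 1 its adjusted p from the same test was 0.0559 or 0.059. With the length and GC trend removed the log2 fold change was -0.46 (adjusted p = 0.000144, edgeR).

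KRT7 had 1400, 1247 and 1661 CPM in vector and 1047, 1104 and 940.4 CPM in oeRNF112. The highest oeRNF112 sample lay below the lowest vector sample by less than the spread within vector. The log2 fold change was -0.48 (standard error 0.12, 95% interval -0.745 to -0.212, adjusted p = 0.0226, edgeR). This call was lost without vector replicate 1 (adjusted p = 0.0808, edgeR), vector replicate 3 (0.0675), oeRNF112 replicate 1 (0.0811) or oeRNF112 replicate 3 (0.0717), and without vector replicate 3 the log2 fold change was -0.36. With the trend removed it was -0.53 (adjusted p = 0.000147, edgeR).

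KRT8 had 1233, 1104 and 1392 CPM in vector and 979.1, 1098 and 898.3 CPM in oeRNF112. Its groups were apart only just, by oeRNF112 replicate 2 and vector replicate 2, and they overlapped in RPKM. Groups that did not overlap were found for 36.8% of the genes tested, and for 17.9% with oeRNF112 lower. The log2 fold change of -0.33 (standard error 0.115, 95% interval -0.581 to -0.0708) had an adjusted p of 0.0759 (edgeR). It passed the threshold with DESeq2 (adjusted p = 0.0362), without vector replicate 2 (edgeR, 0.0249), without oeRNF112 replicate 2 (0.0461) and with the trend removed (0.00274).

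KRT19 was not separated between the groups. Its RPKM was 114.3, 125.1 and 96.3 in oeRNF112 (111.9 ± 14.5), overlapping the vector range, and the 95% interval of the fold change was 0.727 to 1.08. The interval of KRT81, from 158, 193 and 145 counts in oeRNF112 against 180, 146 and 248 in vector, was wider, from -0.783 to 0.196 on the log2 scale. Both had an adjusted p of 0.381 (edgeR), and neither was called under any alternative, the removed trend included (adjusted p of 0.0713 for KRT19 and 0.164 for KRT81).

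KRT17, the basal and wound keratin, went the other way. From 29, 28 and 19 counts in vector it went to 46, 67 and 58 counts in oeRNF112, or from 0.41 ± 0.0861 to 0.931 ± 0.167 RPKM. Each oeRNF112 sample exceeded each vector sample, with a difference of 1.09 on the log2 scale (standard error 0.285, edgeR's adjusted p = 0.0271) and a 95% interval of the fold from 1.37 to 3.30. At these counts the call depended on single libraries. It was lost without vector replicate 1 (adjusted p = 0.0676, edgeR), vector replicate 3 (0.0778), oeRNF112 replicate 2 (0.0757) or oeRNF112 replicate 3 (0.0793). With the trend removed the difference was 1.11 (adjusted p = 0.0136, edgeR). Even after the rise KRT17 was far below KRT80, which had 19.8 ± 1.35 RPKM in oeRNF112.

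**Figure D2:**
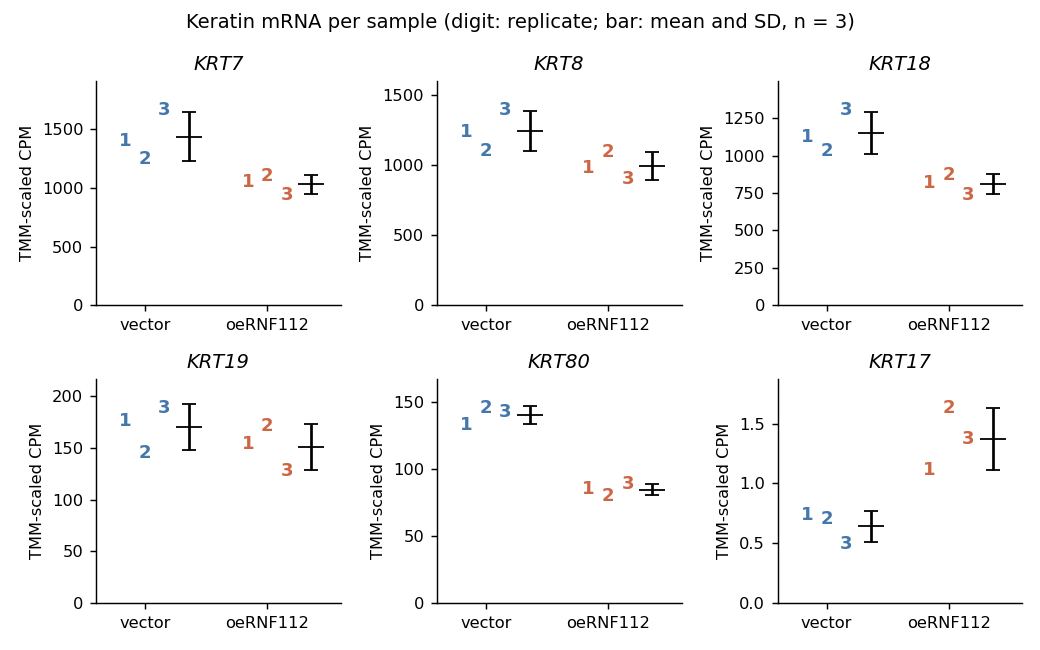
TMM-scaled CPM of 6 keratins in each sample (vertical axes from 0), with digits for the replicate number and bars for the mean and SD of 3 samples. KRT7, KRT8 and KRT18 show the same order of samples within each group, KRT80 a different one, and KRT17 is the keratin of the 6 that is higher in oeRNF112.

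Among the 24 other keratins, 5 passed the filter on low counts and 1 was called, a share near the 18.1% of all genes tested. KRT34 (chr17:41377650-41382403, minus strand) had 25, 16 and 41 counts in vector and 91, 104 and 130 counts in oeRNF112. It rose 3.72-fold (95% interval 2.25 to 6.15, log2 fold change 1.90, standard error 0.325, adjusted p = 0.00421, edgeR), to 1.45 ± 0.262 RPKM, and was called under all 15 alternatives that tested it. KRT10, a type I keratin of upper epidermal layers, had 9.38 RPKM in vector and a log2 fold change of -0.29 (adjusted p = 0.217, edgeR). Without vector replicate 2 its adjusted p was 0.0482. KRT15, a type I keratin of basal cells, had 3.62 RPKM in vector and 0.12 (adjusted p = 0.605), which changed sign to -0.03 without oeRNF112 replicate 2. The keratins that rose, KRT17 and KRT34, are both of type I and both had under 1 RPKM in vector.

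**Figure D3:**
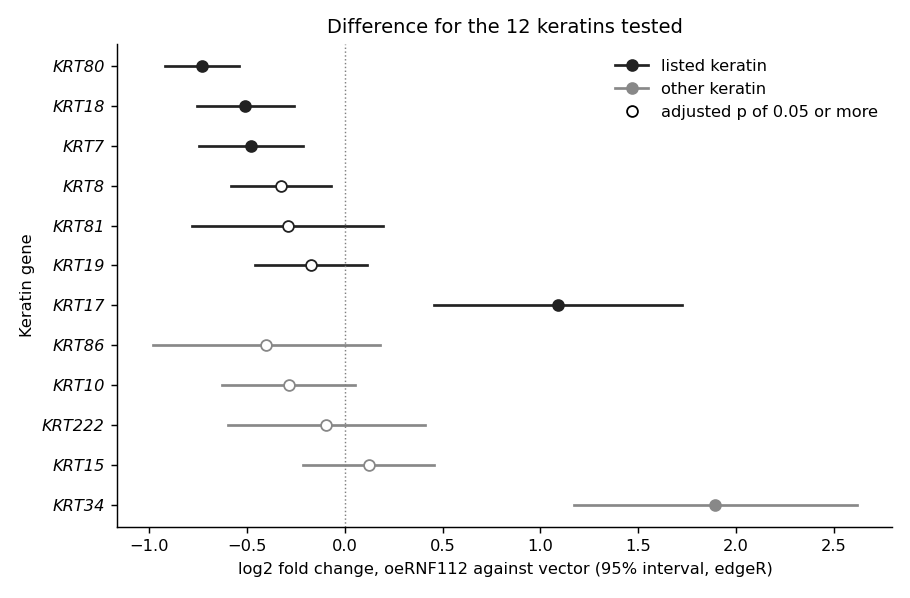
Log2 fold change of oeRNF112 against vector with its 95% interval from edgeR for the 12 keratins tested, listed keratins in black and others in grey, filled where the adjusted p was under 0.05. KRT80, KRT18 and KRT7 lie below 0, KRT17 and KRT34 above 0, and KRT80 has the narrowest interval.

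Beside single genes, the sum and the proportions of the keratins were compared. The listed keratins took 0.39%, 0.363% and 0.449% of all counts in vector and 0.319%, 0.338% and 0.293% in oeRNF112, without overlap. Among single genes tested, 36.8% had groups that did not overlap in TMM-scaled CPM. The share of counts was not computed with the length and GC trend removed. Since filaments pair the types, the ratio of summed type II to summed type I RPKM was computed within each sample. It was 1.344, 1.334 and 1.351 in vector and 1.381, 1.395 and 1.411 in oeRNF112. The ratio was higher in each oeRNF112 sample, by 0.06 on the log2 scale, with p = 0.1 in an exact two-sided permutation test, the smallest p that 3 against 3 samples allow. With each sample's smooth trend with gene length and GC content removed, an alternative chosen after seeing the data, the groups overlapped: the ratio was 1.4, 1.324 and 1.387 in vector and 1.343, 1.415 and 1.352 in oeRNF112 (p = 1.0 in the same exact permutation test). The higher ratio in oeRNF112 thus depended on that scaling.

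Ratios of single genes were picked with their values in view and are a description. There were 0.813 ± 0.0126 RPKM of KRT8 per RPKM of KRT18 in vector and 0.922 ± 0.0225 in oeRNF112. The ratio of KRT7 to KRT8 went from 0.86 ± 0.0262 to 0.777 ± 0.0238, and that of KRT19 to KRT18 from 0.159 ± 0.00891 to 0.2 ± 0.0129 (SD, n = 3). In each of these the groups did not overlap, while the ratio of KRT80 to KRT7 overlapped. The first 3 ratios also did not overlap, in the same directions, with the trend removed. KRT7, KRT8 and KRT18 still made up between 91.4% and 91.9% of the listed keratins' RPKM in oeRNF112.

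**Figure D4:**
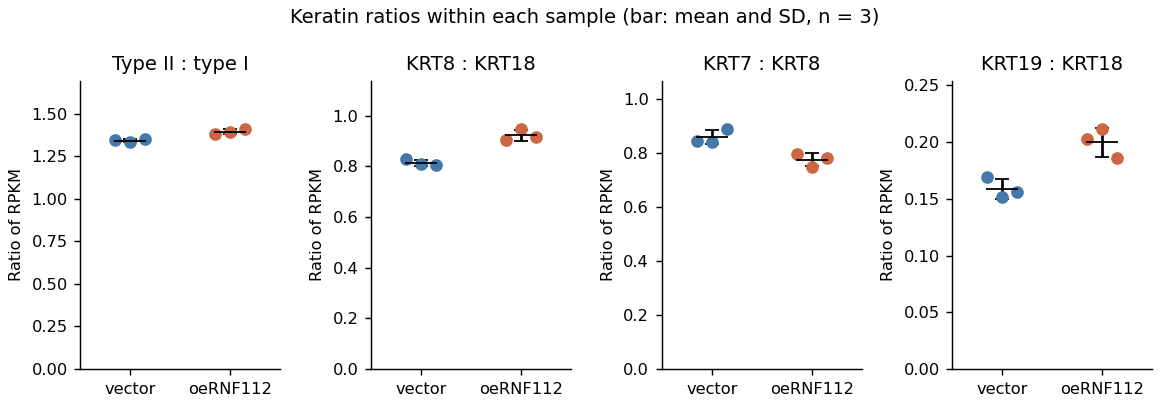
Ratios of RPKM within each sample (vertical axes from 0), with 1 point per sample and bars for the mean and SD of 3 samples. The ratios of type II to type I, KRT8 to KRT18 and KRT19 to KRT18 are higher, and that of KRT7 to KRT8 lower, in each oeRNF112 sample. With the length and GC trend removed, which is not plotted, the groups overlapped in the ratio of type II to type I.

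Over the 6 samples, which share the group difference and the trend with gene length, log2 CPM of KRT7 and KRT18 correlated with r = 0.995, of KRT7 and KRT8 with 0.98 and of KRT19 and KRT80 with 0.353. Of 14466 other genes, those with the pattern most like KRT18 were TECR, an enzyme of fatty acid elongation (r = 0.9987), ARFGAP2, a regulator of Golgi transport (0.9979), and CORO1B, an actin-binding protein (0.997). Their log2 fold changes of -0.37, -0.33 and -0.35 were smaller in size than that of KRT18. These likenesses are descriptions over 6 samples.

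Genes that anchor or regulate keratin filaments were read from lists. Desmosomes join the filaments of neighbouring cells. Of 14 desmosome and plakin genes tested, 1 was lower and 0 were higher (edgeR), where 8.14% of all genes tested were lower and 9.97% higher. Their median log2 fold change was -0.028. The counts were the same at an unadjusted p under 0.05 (edgeR), which 4783 of all 14467 genes tested had in either direction. They were also the same with DESeq2, which called 1656 genes higher and 1478 lower over all genes. The gene that was lower was PPL, periplakin, a cross-linker of keratin filaments at the membrane. PPL had 1637, 1793 and 1426 counts in vector and 860, 786 and 919 in oeRNF112, which gave -1.0 on the log2 scale (standard error 0.105, edgeR's adjusted p = 0.000402). It was called under all 16 alternatives. Desmoplakin (DSP), which ties keratins to the desmosome, had a log2 fold change of 0.37 (adjusted p = 0.163), and 0.57 without vector replicate 2 (adjusted p = 0.0107). Plakoglobin (JUP) had 0.05 and plectin (PLEC), the large linker of filaments, -0.01. With the trend removed JUP turned to -0.04, and PLEC was lower by the test (log2 fold change -0.23, adjusted p = 0.0154, edgeR). With library totals in place of TMM factors PLEC had 0.09.

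Hemidesmosomes anchor keratins to the basement membrane, and among 8 of their genes tested 2 were higher and 1 lower, beside 9.97% and 8.14% of all genes. Integrin β4 (ITGB4), which binds plectin inside the cell, had 1185, 1324 and 999 counts in vector and 490, 435 and 431 in oeRNF112. Its difference of -1.45 on the log2 scale (standard error 0.12, edgeR's adjusted p = 0.000135) was larger in size than that of any listed keratin, and its groups lay far apart. Its partner ITGA6 had 0.37 (adjusted p = 0.0549), which passed the threshold under 9 of 16 alternatives, among them DESeq2 (0.0261), library totals (edgeR, 0.0338), the removed trend (0.00909) and the fits without vector replicate 2 (0.0142) or oeRNF112 replicate 2 (0.0296). LAMB3, a chain of laminin in the basement membrane, had a log2 fold change of 0.50 (edgeR, 0.00446 as adjusted p), while LAMA3, another laminin chain, had -0.15 (adjusted p = 0.577), or 0.04 without vector replicate 2. COL17A1, a transmembrane collagen of the hemidesmosome, rose by 0.41 (adjusted p = 0.0106), a call lost without vector replicate 1 (0.0543) or oeRNF112 replicate 1 (0.0665). The components thus moved in both directions, with a median of -0.0304.

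Of 9 genes tested whose products bind or modify keratins, 1 was lower and 0 were higher (edgeR), beside 8.14% and 9.97% of all genes. At an unadjusted p under 0.05 (edgeR), which 4783 of 14467 genes had in either direction, 2 were higher, CSNK1A1 and PNN. Of these, DESeq2 called PNN, among 1656 genes that it called higher. FAM83H, which organises keratin filaments with casein kinase, had a log2 fold change of -0.29 (adjusted p = 0.0336, edgeR), and it was not called when any 1 of the 6 samples was left out (adjusted p from 0.0565 to 0.111), and under only 4 of 16 alternatives in all, being lost with library totals (0.129) too. Stratifin (SFN), a 14-3-3 protein that binds keratins, had 92.2 RPKM in vector and 92.7 in oeRNF112, which RPKM scales by library total alone. With TMM factors its log2 fold change was -0.09 (adjusted p = 0.637, edgeR). Among 8 other intermediate filament genes tested, 2 were lower and 0 higher (edgeR), against 8.14% and 9.97% of all genes. The counts were the same at an unadjusted p under 0.05 (edgeR), which 4783 of 14467 genes had in either direction. DESeq2 also called PRPH higher, a neuronal filament gene with 1 count in each vector sample and 9, 20 and 20 in oeRNF112. PRPH did not pass the filter on low counts for edgeR and was not among the 8. Those lower were LMNB1, a lamin of the nuclear envelope (log2 fold change -0.54, adjusted p = 0.00292), and BFSP1, a lens filament protein (-1.14, adjusted p = 0.0138, and 0.0578 without oeRNF112 replicate 1). Neither forms filaments with keratins. VIM had -0.21 (adjusted p = 0.25). No called gene was among the 3 cornified envelope genes tested, TGM1, CNFN and CSTA (edgeR and DESeq2), beside 18.1% of all genes with edgeR. CSTA had an unadjusted p of 0.0294 (edgeR).

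Of 11 epithelial transcription factors and related regulators tested, 3 were higher and 2 lower, beside 9.97% and 8.14% of all genes. FOXA1, a factor of luminal urothelium, had 1416, 1644 and 1430 counts in vector and 845, 571 and 834 in oeRNF112 (log2 fold change -1.08, standard error 0.144, adjusted p = 0.00132, edgeR). GRHL1, a grainyhead factor, rose from 81, 79 and 67 counts to 164, 149 and 195 (1.08, adjusted p = 0.0034). In both genes the groups were clearly apart. Of the alternatives that tested them, 8 of 15 called EHF, 10 of 16 KLF5 and 9 of 15 ESRP1. The calls for EHF (-1.26, adjusted p = 0.0308), KLF5 (0.36, 0.0383) and ESRP1, a splicing regulator rather than a transcription factor (0.83, 0.0438), were each lost when single samples were left out. EHF had an adjusted p of 0.0822 without vector replicate 1, 0.0605 without vector replicate 2, 0.105 without oeRNF112 replicate 1 and 0.0699 without oeRNF112 replicate 2. KLF5 was called only without vector replicate 2, and otherwise had between 0.0531 and 0.149. ESRP1 was called only without vector replicate 1, and otherwise had between 0.0526 and 0.141.

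**Figure D5:**
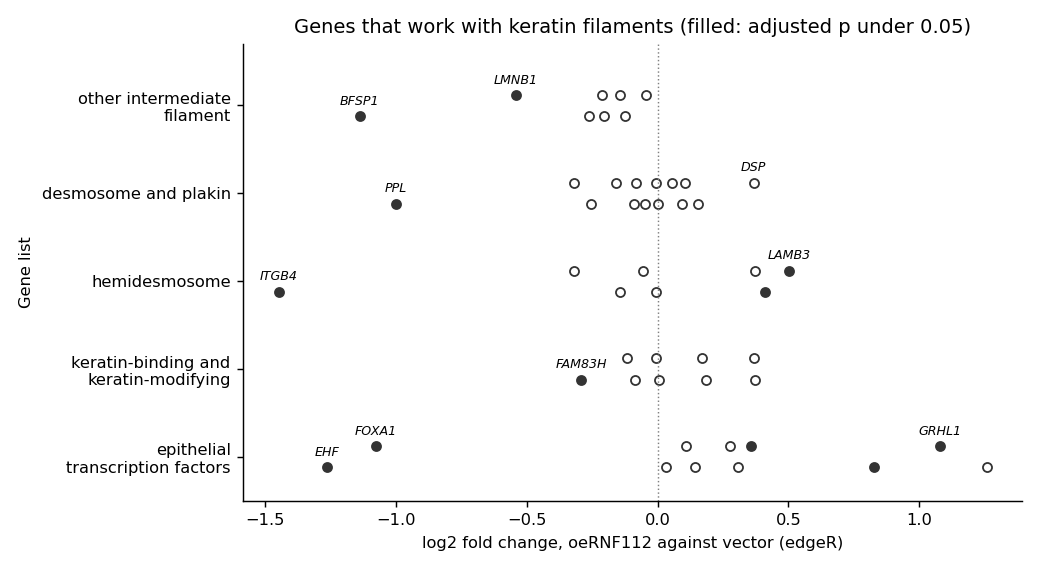
Log2 fold changes from edgeR of the genes tested in 5 lists of genes related to keratin filaments, 1 point per gene, filled where the adjusted p was under 0.05. The desmosome list has 1 filled point (PPL) and the hemidesmosome list has filled points on both sides of 0, from ITGB4 at -1.45 to LAMB3 at 0.50.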

How the data were processed

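RNA of T24 cells was sequenced from 3 vector and 3 oeRNF112 samples. The files deposited by the authors hold raw counts for each gene and the RPKM made from them. Per the labels, reads were trimmed with Trimmomatic 0.36 and counted with featureCounts of Subread 1.5.1 on GRCh38, and the aligner and annotation are not given in the sources used here. RPKM equalled count over column total and a single length for all 20637 genes with counts in several samples (tolerance 0.001 of the length).

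Counts were tested with edgeR 4.0.16 in R 4.3.3 (filter on low counts, TMM factors, quasi-likelihood test, Benjamini-Hochberg adjustment over 14467 genes, threshold 0.05). Scripts were tested on simulated data. Replicates differed by more than sampling noise, so none was a copy. The smooth trend of each sample (loess, span 0.5) used the length and GC content of 91.4% of genes tested, all 12 keratins included.

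The keratins and gene lists were chosen with earlier results of these data known. Genes named are RNF112, the listed keratins, other keratins called or with at least 1 RPKM in vector, VIM, DSP, PLEC and JUP, at most 6 called genes per list with the smallest p, the most abundant gene of each marker list, and the 3 genes most like KRT18. GATA3, PPARG, TP63, CDH1, SFN, ITGA6, LAMA3, KRT86, KRT7-AS and the genes of low counts or markers named beside them were added after their values were seen. Alternatives were DESeq2 1.42.0, DESeq2 size factors, library totals, other filters, a replicate block, each sample left out, limma 3.58.1 on log2(RPKM + 1) or log2(RPKM + 0.1), and the trend removed. Proteins were not analysed, and some items are not reported here. RefSeq promoters (GRCh38.p14, 250 bases before to 50 after the start) had entries for 3 of the 10 keratins, KRT5, KRT8 (a window with 1 of its 17 GENCODE transcript starts) and KRT20, and none of these held the E-box CACGTG, the binding site of AP-1 spelled TGANTCA or the TATA box written TATAAA on either strand, which 7.26%, 7.71% and 11.5% of 35116 promoters held.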

Additional observations from a re-analysis of the deposited data

How the results depend on the processing

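No keratin of the 7 tested changed direction under the alternatives that tested it, 15 for KRT17 and 16 for each of the others, and KRT80 was called in all 16. Of the 7, 4 were called in the main comparison, 5 with DESeq2 or with the length and GC trend removed, 2 with limma on genes of at least 1 mean RPKM, and between 1 and 5 when single samples were left out. Genes called overall went from 2620 of 14467 to 3134 with DESeq2 and to 5016 of the 13217 covered with the trend removed. They went to 2042 with limma on genes of at least 1 mean RPKM, and to between 1061 and 3387 with single samples left out. Of the calls, 1442 were higher and 1178 lower with TMM factors, 2020 and 659 with library totals, and 1779 and 3237 with the trend removed, so the balance of higher and lower depended on scaling. The cause was not tested. KRT17 had a log2 fold change of 0.45 with limma and a pseudocount of 1, which shrinks low values. KRT7 was also not called in the 3 limma fits (adjusted p from 0.0512 to 0.0608). None of the values that turned sign was called. PLEC turned to 0.0871 with library totals, 0.00219 with at least 10 counts in every sample, and 0.0892, 0.0918 and 0.0892 in the 3 limma fits, and ranged from -0.10 to 0.14 with single samples left out. UPK1A, with at most 20 counts, turned to 0.0531 with library totals and 0.00809 with limma, and ranged from -0.48 to 0.40 with samples left out. With single samples left out KRT15 ranged from -0.0281 to 0.23 and LAMA3 from -0.31 to 0.0414, and JUP turned to -0.039 with the trend removed. The log2 difference of the type II to type I ratio was between 0.0407 and 0.0629 with counts in place of RPKM, with all keratins in the tables, with the replicate block and with single samples left out, and was -0.0002512, with overlapping groups, with the trend removed.

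With replicate number as a block, 876 genes and 1 listed keratin, KRT80, were called, and the adjusted p was 0.0928 for KRT18, 0.124 for KRT7 and 0.0935 for KRT17 (edgeR). In the same edgeR fit the calls of LAMB3 (adjusted p = 0.0611), COL17A1 (0.106), FAM83H (0.221) and EHF (0.0954) were lost. Those of KLF5 (0.192), ESRP1 (0.115), EPCAM (0.079) and CDH2 (0.124) were lost too, while PPL, ITGB4, FOXA1 and GRHL1 were still called. Deviations of same-numbered samples correlated with r = -0.116, -0.363 and -0.296, which gives no sign that a shared number marks a shared origin. Counts of KRT13 and KRT20 were too low for any comparison.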

Other observations

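KRT34 and KRT17 lie in the type I keratin cluster, and the genes tested between KRT10 and KRT17 (chr17:40818117-41624842, GRCh38) were read together after these values had been seen. Since KRT17 and KRT34 set the choice of this stretch, no share is compared with that of all genes. Besides these 2, the genes called among the 8 tested there were 2 hair keratin-associated protein genes, which code for the matrix around hair keratins. KRTAP2-3 had 118, 105 and 149 counts in vector and 374, 445 and 433 in oeRNF112 (1.67 on the log2 scale, standard error 0.167, edgeR's adjusted p = 0.000314). KRTAP2-4 had 3, 6 and 5 counts in vector and 11, 30 and 28 in oeRNF112 (2.19, standard error 0.526, adjusted p = 0.0191), a call lost without vector replicate 1 (0.0862), vector replicate 3 (0.0501) or oeRNF112 replicate 3 (0.0645). In both genes every oeRNF112 sample exceeded every vector sample. Where KRTAP genes are alike in sequence, which was not measured here, reads may be divided between them. KRTAP4-9 had 0.97 (adjusted p = 0.214), and of 20 KRTAP genes with a row 3 were tested.

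Marker genes of epithelial and mesenchymal cells were measured in the same samples. Of 4 general epithelial markers tested, 2 were higher, beside 9.97% of all genes. EPCAM, an epithelial adhesion protein, had 94, 66 and 99 counts in vector and 143, 183 and 165 in oeRNF112 (log2 fold change 0.84, adjusted p = 0.0208, edgeR), a call lost without vector replicate 1 (0.0583), oeRNF112 replicate 2 (0.0506) or oeRNF112 replicate 3 (0.0531). CDH3, P-cadherin, rose from 33, 24 and 41 counts to 94, 65 and 83 (1.22, adjusted p = 0.0158), a call lost without vector replicate 1 (0.0606) or oeRNF112 replicate 1 (0.0702). Of 5 mesenchymal markers, 2 were lower, beside 8.14% of all genes, SPARC, a matrix-binding protein (-0.83, adjusted p = 0.0003), and CDH2, N-cadherin (-0.44, adjusted p = 0.0252), the latter lost without vector replicate 1 (0.102), oeRNF112 replicate 1 (0.0769) or oeRNF112 replicate 2 (0.0706), with library totals (0.0817) and in the 3 limma fits (0.0755 to 0.085). None of the 5 mesenchymal markers was called higher, but ZEB1 was fitted above 0, with a log2 fold change of 0.29 (adjusted p = 0.272, edgeR). CDH3, SPARC, CDH2 and ZEB1 were named after their values were seen.

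Markers of other cell types were measured too. The 5 endothelial genes summed to at most 0.11 RPKM in any sample, with none above 10 counts except VWF, at 11 in oeRNF112 3, and CDH5 the most abundant in vector, and the 6 fibroblast genes to at most 2.21 RPKM, mostly COL1A1, while COL1A2 and DCN had at most 1 count. The 6 leukocyte genes summed to 18.5, 17.3 and 17.97 RPKM in vector and 34.8, 40.8 and 33.2 in oeRNF112, most of it CD68, a lysosomal protein, with means of 13.5 and 33.3 RPKM (log2 fold change 1.21, adjusted p = 0.000312, edgeR). LAPTM5 was lower (-0.88, adjusted p = 0.0308), a call lost without vector replicate 1 (0.131), vector replicate 3 (0.0507), oeRNF112 replicate 2 (0.0688) or oeRNF112 replicate 3 (0.0949) or with library totals (0.052), and PTPRC, which defines leukocytes, had 54, 37 and 40 counts in vector and 33, 24 and 26 in oeRNF112.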
